A study of Mus musculus with 45 samples.

Results

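Astrocyte genes were examined by RNA-seq in 3 brain regions (cortex, hippocampus and striatum) of adult mice with a Shank3 deletion. The set held 34 genes that are commonly used to mark astrocytes, and it was given as a list of names, drawn up with earlier results of these data known. All 34 were found among the 18135 genes of the deposited table, and all 34 were kept in each region by the filter (mean of 10 or more normalized counts), which left 16507 genes for testing in cortex, 16571 in hippocampus and 16482 in striatum. The lowest value of any of the 34 genes in any sample was 52.5 normalized counts.

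The mice were male C57BL/6J animals of 13 weeks. The genotypes compared were wild-type (WT), Shank3-heterozygous (Shank3-HT) and Shank3-homozygous (Shank3-HM), the mutants lacking an internal group of Shank3 exons on one or both copies, and no other allele or treatment is named in the labels. Each of the 9 groups of region and genotype held 5 samples, 45 in all, and the cortex samples were prefrontal. A TruSeq kit for stranded mRNA was used on RNA of whole tissue pieces, so in these bulk samples fewer astrocytes and less RNA per astrocyte cannot be told apart.

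Astrocytes clear glutamate and GABA from around synapses, buffer potassium and water at their endfeet on blood vessels, share ions and metabolites through gap junctions, and supply neurons with glutamine, lactate and lipid carriers. Their gene expression is known to differ between forebrain regions and between the grey matter, the white matter and the glial borders of the brain. The genes were grouped by role into identity and cytoskeleton (5 genes), transmitter uptake and recycling (6), water, ions and gap junctions (8), energy, lipid and amino acid metabolism (6), secreted proteins (4) and receptors and signalling (5). Several of them are also used by other cells of these tissues, among them Apoe by microglia, Glul by oligodendrocytes, and Clu and Sparcl1 by neurons.

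Some facts of the libraries bear on what follows. Shank3 separated the genotypes in each region, with the 5 Shank3-HM samples below the 5 Shank3-HT samples and these below the 5 WT samples, for example 4054 ± 285, 6138 ± 373 and 8005 ± 725 normalized counts (mean ± SD, n = 5 each) in the cortex. Regional markers matched the labels, with 9 of 9 striatal markers higher in WT striatum and 7 of 7 hippocampal markers higher in WT hippocampus than in WT cortex. One library held striatal markers beside those of its label: Shank3-HM cortex replicate 2 held 2483 normalized counts of the dopamine receptor gene Drd1, against 119 to 225.5 in the other 14 cortex samples. Its striatal markers summed to 50966, against 5639 to 7721 in the other cortex samples and 187574 or more in the striatum. Its cortical markers summed to 33233, against 52817 to 62608 in the other cortex samples and 4609 to 13018 in the striatum. The striatal WT replicate 5 held 7801 normalized counts of the cortical transporter gene Slc17a7, against 940.2 to 2137 in the other 4. The choroid plexus gene Ttr ranged from 2097 to 113040 normalized counts over the WT hippocampus samples and reached 62259 in Shank3-HT striatum replicate 5. Markers of the other cell types were detected in every group, with none of any list at 0 throughout a group.

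The promoters of 4 genes that stood at the upper or lower end of the set in a pair of regions are shown first, to give the sequence at the start of genes described below. RefSeq windows of 300 bases (250 before to 50 after a transcription start, build GRCm38.p6) were at hand for 28 of the 34 genes, in 38 windows. Capitals mark a STAT site (TTCNNNGAA) or a TATA box (TATAAA), read on both strands. Gfap is encoded on the minus strand of chromosome 11 (102887336 to 102900912), Agt on the minus strand of chromosome 8 (124556534 to 124569706), Slc25a18 on the plus strand of chromosome 6 (120773578 to 120794336) and Gli3 on the plus strand of chromosome 13 (15463235 to 15730026) in the GENCODE annotation of GRCm38.
Gfap promoter, chr11:102897151-102897450, minus strand: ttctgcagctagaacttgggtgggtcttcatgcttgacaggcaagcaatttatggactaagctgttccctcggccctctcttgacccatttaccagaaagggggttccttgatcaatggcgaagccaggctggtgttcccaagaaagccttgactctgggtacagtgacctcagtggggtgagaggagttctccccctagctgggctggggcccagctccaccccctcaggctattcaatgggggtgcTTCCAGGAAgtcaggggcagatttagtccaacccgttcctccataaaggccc
Agt promoter, chr8:124569657-124569956, minus strand: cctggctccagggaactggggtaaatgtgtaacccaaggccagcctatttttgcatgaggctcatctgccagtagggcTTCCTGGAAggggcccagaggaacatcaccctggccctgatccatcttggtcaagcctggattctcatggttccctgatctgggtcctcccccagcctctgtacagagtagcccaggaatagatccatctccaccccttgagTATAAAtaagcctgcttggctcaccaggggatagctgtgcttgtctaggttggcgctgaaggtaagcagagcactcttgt
Slc25a18 promoter, chr6:120773518-120773817, plus strand: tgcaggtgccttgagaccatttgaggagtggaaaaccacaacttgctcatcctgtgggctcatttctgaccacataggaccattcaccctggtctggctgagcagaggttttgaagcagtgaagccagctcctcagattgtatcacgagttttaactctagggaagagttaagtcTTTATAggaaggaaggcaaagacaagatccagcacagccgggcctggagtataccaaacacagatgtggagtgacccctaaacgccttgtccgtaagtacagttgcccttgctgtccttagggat
Gli3 promoter, chr13:15463473-15463772, plus strand: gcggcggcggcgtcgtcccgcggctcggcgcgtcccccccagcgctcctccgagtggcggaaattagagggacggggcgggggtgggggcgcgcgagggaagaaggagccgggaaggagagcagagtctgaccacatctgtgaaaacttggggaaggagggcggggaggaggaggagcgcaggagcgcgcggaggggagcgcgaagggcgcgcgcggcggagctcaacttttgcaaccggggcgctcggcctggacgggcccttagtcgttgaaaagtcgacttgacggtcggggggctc

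The windows of Gfap and Agt each held 1 STAT match, and Agt and Slc25a18 each held 1 TATA match, that of Slc25a18 on the opposite strand. The Gli3 window held neither. Over the set, the STAT pattern was present in 7 of 38 windows (18.4%), those of Agt, Acsbg1, Aldoc, Gfap, Ntsr2, Tnfrsf19 and Slc1a3, against 8.30% of all 32851 windows of the same length. The TATA pattern was present in 15.8% of the 38 windows against 13.6% of all, the NFI half-site TTGGCA in 10.5% against 14.1%, and the SOX pattern AACAAT in 5.26% against 10.7%. Matches of different patterns may share bases, and a match is a match of letters and no more.

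Levels of the 34 genes spanned 3 orders of size when set per length, that is, as normalized counts per kilobase of the median coding transcript. In WT cortex, Slc1a2, the main glutamate transporter of forebrain astrocytes, stood highest at 54100 per kilobase and Agt lowest at 42.1 per kilobase, with a median over the genes of 843.5 per kilobase. In WT hippocampus the median was 858.5 per kilobase and in WT striatum 682 per kilobase. Most genes varied little within a group. The coefficient of variation over the 5 WT samples had a median of 7.05% in cortex, 8.51% in hippocampus and 8.23% in striatum, and was widest for Gjb6 in the cortex (21.8%), Gli3 in the hippocampus (38.6%) and Slc25a18 in the striatum (43.9%).

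The first comparison asked how the astrocyte genes differ between regions in WT mice. Gfap, Agt and Slc14a1 were much higher in the hippocampus, Slc25a18 and Gjb6 much lower in the striatum, and Gli3 and Slc4a4 higher in the striatum. Most of the others differed by less: over the 3 regions, the highest WT mean was under 1.5 times the lowest for 23 of the 34 genes and at least 2 times for 6, Gfap, Gjb6, Slc25a18, Agt, Gli3 and Slc14a1. The striatum had the lowest mean of 19 genes, the hippocampus of 9 and the cortex of 6.

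Tested in limma with Benjamini-Hochberg adjustment over all genes, 7 of the 34 genes were higher and 11 lower in WT hippocampus than in WT cortex. That is 20.6% and 32.4% of the set, where 23.3% of all genes tested were higher and 23.3% lower. Against the cortex, 4 genes were higher and 19 lower in the striatum, 11.8% and 55.9% of the set, where 30.0% of all genes were higher and 29.3% lower. Against the striatum, 17 genes were higher and 5 lower in the hippocampus, 50.0% and 14.7% of the set, where 28.3% of all genes were higher and 27.8% lower. The median log2 difference over the set was -0.06 (hippocampus against cortex), -0.23 (striatum against cortex) and 0.19 (hippocampus against striatum), where the medians over all genes were 0.01, 0.01 and 0.00. Calls of at least 2-fold, a rule added after the values were seen, were fewer: 3 genes (8.82%) in hippocampus against cortex, where 11.1% of all genes passed, 2 genes (5.88%) in striatum against cortex, where 17.4% passed, and 6 genes (17.6%) in hippocampus against striatum, where 16.2% passed.

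**Figure D1:**
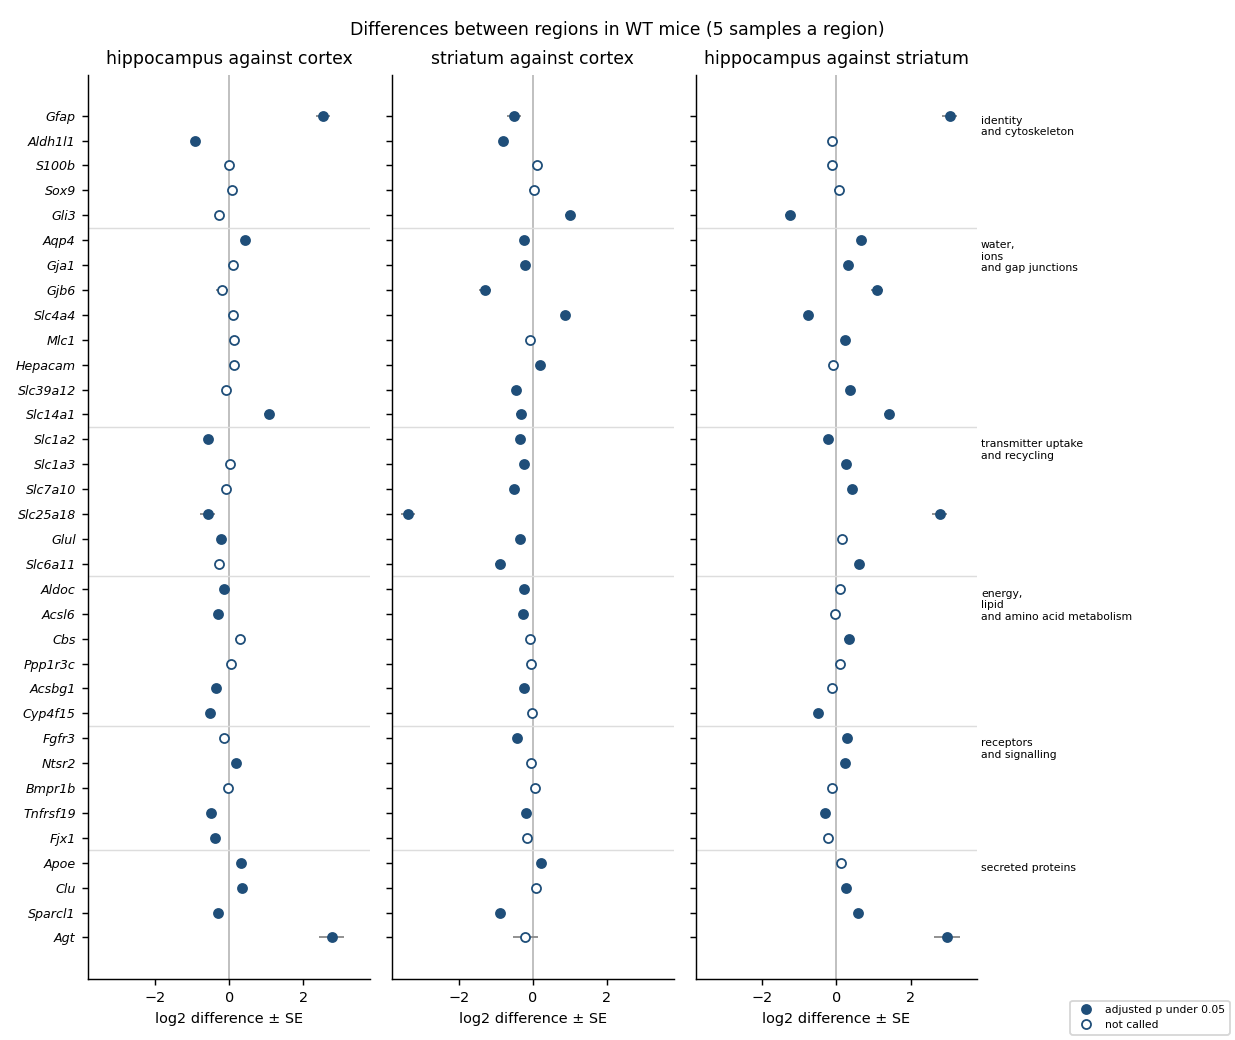
Log2 differences (± SE) of the 34 genes between regions of WT mice, 1 panel per pair of regions, with genes in rows ordered by role; filled circles have an adjusted p under 0.05. The hippocampus against cortex panel holds 18 filled circles (7 right of zero, 11 left), the striatum against cortex panel 23 (4 right, 19 left) and the hippocampus against striatum panel 22 (17 right, 5 left).

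Other cell types moved between the same regions. All 12 oligodendrocyte markers were higher in WT hippocampus and in WT striatum than in WT cortex, and their summed level was 70489 to 91900 normalized counts in the cortex, 151413 to 164811 in the hippocampus and 195631 to 260279 in the striatum. Of the 9 choroid plexus markers, 9 were higher in the hippocampus than in the cortex, with sums of 88.2 to 171 in the cortex, 3221 to 124523 in the hippocampus and 469.9 to 1548 in the striatum. All 6 ependymal markers were higher in both the hippocampus and the striatum than in the cortex, and 8 of 12 microglia markers were higher in the striatum. Of 12 neuron markers, 11 were lower in the striatum and 7 lower in the hippocampus than in the cortex, and 7 were higher and 3 lower in the hippocampus than in the striatum, with sums of 290494 to 302662 (cortex), 207512 to 241183 (hippocampus) and 169317 to 181362 (striatum). Of 10 endothelial markers, 6 were lower in the hippocampus than in each other region, with sums of 9960 to 11896 (cortex), 8063 to 9351 (hippocampus) and 9838 to 11353 (striatum). Their part in the differences of the astrocyte genes was not tested.

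Among the identity and cytoskeleton genes, Gfap, the intermediate filament protein of fibrous and hippocampal astrocytes, was 10021, 9543, 8699, 9353 and 8813 normalized counts in the WT hippocampus samples. It was 1621, 1653, 1606, 1408 and 1724 in the cortex and 859, 1078, 1293, 1016 and 1423 in the striatum. Every hippocampal sample stood far above every sample of the other regions, whereas the cortex and the striatum overlapped. Gfap was higher in the hippocampus by 2.54 ± 0.19 (log2, SE, adjusted p = 1.13e-14) against the cortex and by 3.05 ± 0.19 (adjusted p = 1.2e-17) against the striatum. It was lower in the striatum than in the cortex by a log2 difference of -0.52 ± 0.19 (adjusted p = 0.0194), a call that was lost without striatum WT replicate 1 (adjusted p = 0.0714).

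Aldh1l1, a folate enzyme present in nearly all astrocytes, was highest in the cortex. It was 2099, 2032, 2061, 2082 and 1992 normalized counts in WT cortex, 1163, 1033, 997, 1180 and 1047 in the hippocampus and 1000, 1118, 1145, 1340 and 1281 in the striatum. All cortex samples were above all others, and the hippocampus and the striatum overlapped. The log2 difference from the cortex was -0.92 ± 0.08 in the hippocampus (adjusted p = 8.06e-13) and -0.81 ± 0.08 in the striatum (adjusted p = 1.53e-11), while hippocampus and striatum differed by -0.11 ± 0.08 (adjusted p = 0.238).

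Gli3, a transcription factor that mainly represses hedgehog target genes, was 617, 749.5, 664.5, 633 and 477 normalized counts in WT striatum. The cortex samples held 281, 337.5, 287, 349 and 312.5, and the hippocampus samples 196, 456, 263, 225 and 223. The striatal samples were above all others, although 1 hippocampal sample, replicate 2, came close to the lowest of them. Gli3 was higher in the striatum than in the cortex by 0.99 ± 0.13 (adjusted p = 1.67e-08), and the hippocampus was below the striatum by a log2 difference of -1.26 ± 0.13 (adjusted p = 5.03e-11). S100b, a calcium-binding protein, and Sox9, a transcription factor of the glial lineage, were called in none of the 3 pairs, with S100b means of 2502 ± 94.4 in cortex, 2503 ± 190 in hippocampus and 2702 ± 120 in striatum (SD, n = 5 each).

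**Figure D2:**
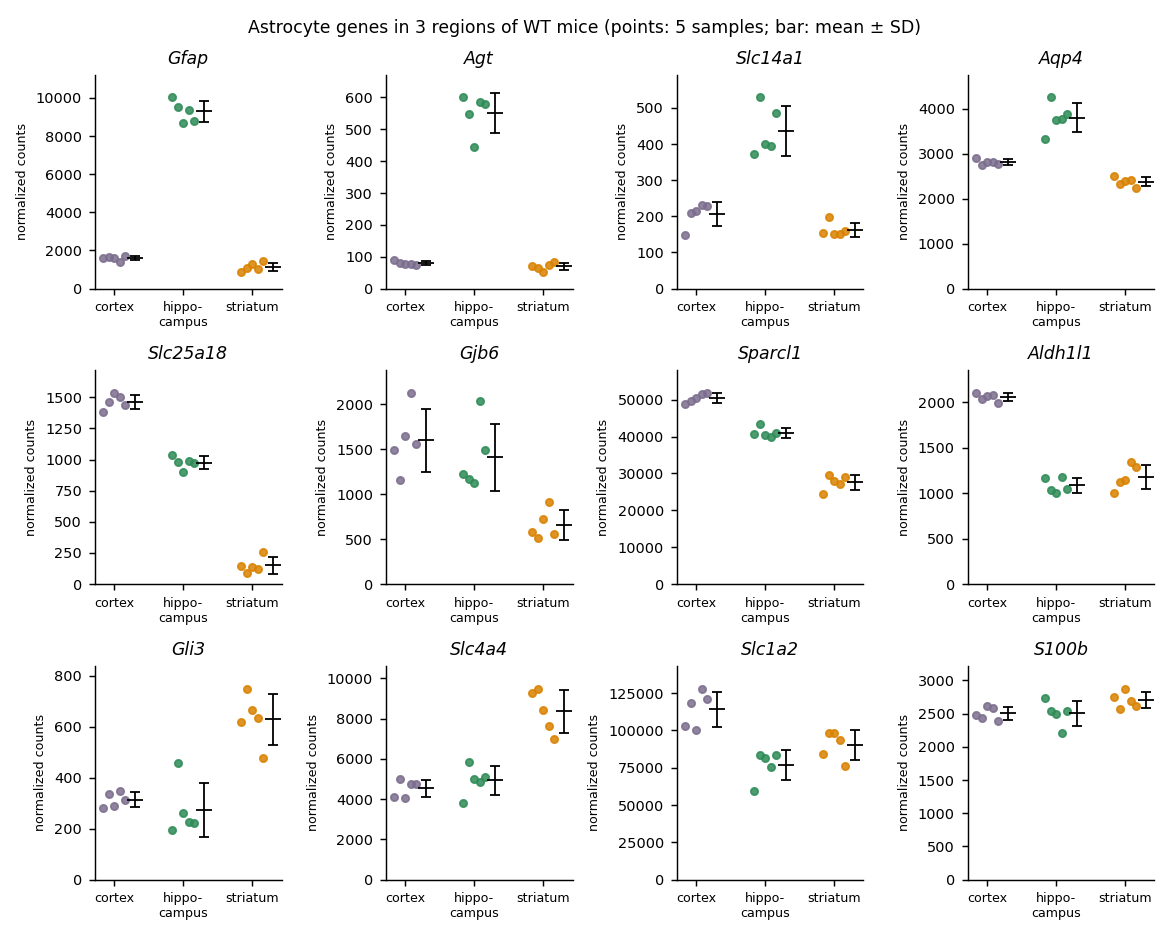
Normalized counts of 12 astrocyte genes in the 5 WT samples of each region (points, linear axes from 0), with the mean and SD beside them. Gfap, Agt, Slc14a1 and Aqp4 are highest in the hippocampus, Slc25a18, Sparcl1 and Aldh1l1 in the cortex and Gli3 and Slc4a4 in the striatum, Gjb6 is lowest in the striatum, and the S100b means lie between 2502 and 2702.

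All 6 genes of transmitter uptake and recycling were lower in the striatum than in the cortex. Slc25a18, which carries glutamate across the mitochondrial membrane, had the largest difference of the set. It was 1385, 1463, 1534, 1498 and 1434 normalized counts in WT cortex, 1033, 984, 897, 991 and 974 in the hippocampus and 146, 88, 135, 120.5 and 262 in the striatum. The 3 regions did not overlap, and the highest striatal value was that of replicate 5, the sample with the high Slc17a7 value. The log2 difference of striatum from cortex was -3.37 ± 0.19 (adjusted p = 9.32e-19), or -3.59 without that sample, and that of hippocampus from cortex was -0.58 ± 0.19 (adjusted p = 0.0116).

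Slc1a2 was 103259, 118048, 100491, 128021 and 120931 normalized counts in WT cortex, 59443, 83367, 81382, 75373 and 83250 in the hippocampus and 84419, 98417, 98560, 93711 and 76002 in the striatum. The cortex was above both other regions in every sample, with log2 differences of -0.58 ± 0.09 for the hippocampus (adjusted p = 5.29e-07) and -0.34 ± 0.09 for the striatum (adjusted p = 0.00104, lost under quantile normalization with adjusted p = 0.507). Hippocampus and striatum overlapped, and their difference of -0.24 ± 0.09 (adjusted p = 0.0194) was lost under quantile normalization (adjusted p = 0.0775) and when hippocampus WT replicate 1 (adjusted p = 0.131), striatum WT replicate 2 (adjusted p = 0.0602) or striatum WT replicate 3 (adjusted p = 0.0605) was left out. Its relative Slc1a3, the second glutamate transporter of astrocytes, was 17969 ± 821 in cortex, 18173 ± 1000 in hippocampus and 15176 ± 597 in striatum. Slc6a11, a GABA transporter, fell from 4554 ± 343 in the cortex to 2452 ± 165 in the striatum (log2 -0.89 ± 0.12, adjusted p = 3.3e-08), Slc7a10, a carrier of serine and glycine, from 774.5 ± 79.9 to 542 ± 61.1 (log2 -0.52 ± 0.11, adjusted p = 6.89e-05), and Glul, which makes glutamine, from 50043 ± 3750 to 39065 ± 3640 (log2 -0.36 ± 0.07, adjusted p = 8.54e-06).

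Of the 8 genes for water, ions and gap junctions, 6 were higher in the hippocampus than in the striatum and 1, Slc4a4, was lower. Aqp4, the water channel of astrocyte endfeet, was 3339, 4252, 3760, 3762 and 3892 normalized counts in WT hippocampus, 2905, 2746, 2822, 2824 and 2774 in the cortex and 2514, 2334, 2386, 2424 and 2248 in the striatum. The regions did not overlap and stood in the order hippocampus, cortex, striatum. Its log2 difference from the cortex was 0.43 ± 0.08 in the hippocampus (adjusted p = 1.39e-05) and -0.24 ± 0.08 in the striatum (adjusted p = 0.00762). The urea transporter gene Slc14a1 was 371, 529, 399, 393.5 and 487 in the hippocampus, 147.5, 209, 215, 230 and 229 in the cortex and 154, 198, 151, 152 and 160.3 in the striatum, so that every hippocampal sample was above every other, by 1.08 ± 0.13 (log2, adjusted p = 2.1e-09) against the cortex.

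The set held a pair of gap junction genes. Gjb6, which encodes a connexin of mature astrocytes, was 583, 511.5, 722, 917 and 562 normalized counts in WT striatum, 1491, 1160, 1646, 2123 and 1558 in the cortex and 1224, 1173, 1127, 2031 and 1485 in the hippocampus. All striatal samples were below all others, and the log2 difference of striatum from cortex was -1.28 ± 0.16 (adjusted p = 4.03e-09). Gja1, which encodes the most abundant astrocyte connexin, was 4675 ± 378 in cortex, 5001 ± 181 in hippocampus and 4006 ± 201 in striatum, with a log2 difference of striatum from cortex of -0.22 ± 0.06 (adjusted p = 0.00103). Slc4a4, the sodium bicarbonate cotransporter, was 9298, 9500, 8429, 7636 and 7009 in WT striatum, against 4119, 5009, 4069, 4743 and 4758 in the cortex and 3812, 5866, 5005, 4877 and 5093 in the hippocampus. The striatal samples were above all others, with log2 differences of 0.88 ± 0.09 from the cortex (adjusted p = 1.57e-11) and, for the hippocampus against the striatum, of -0.77 ± 0.09 (adjusted p = 5.65e-10). Mlc1 and Hepacam, which encode membrane partners at the endfoot, differed by at most 0.23 (log2) in any pair, and the zinc transporter gene Slc39a12 was lower in the striatum than in the cortex by a log2 difference of -0.46 ± 0.08 (adjusted p = 4.01e-06).

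Among the secreted proteins, Agt, which encodes the precursor of angiotensin, was 599.9, 549, 444, 587 and 579 normalized counts in WT hippocampus. It was 89.2, 80.8, 78.8, 76.2 and 72.8 in the cortex and 71.4, 64.9, 52.5, 75.6 and 84 in the striatum. Cortex and striatum overlapped, and the hippocampus was higher by 2.77 ± 0.34 (log2, adjusted p = 5.6e-09) than the cortex and by 2.98 ± 0.34 (adjusted p = 5.71e-10) than the striatum. Clu, a secreted chaperone, and Apoe, the lipid carrier, were also higher in the hippocampus than in the cortex, at 20908 ± 1470 against 16359 ± 693 and 30533 ± 2580 against 24220 ± 1160. Sparcl1, a secreted protein of the synaptic matrix, had the order cortex (50462 ± 1300), hippocampus (41052 ± 1310) and striatum (27591 ± 2060), with no overlap, and a log2 difference of striatum from cortex of -0.87 ± 0.07 (adjusted p = 2.87e-14).

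Of the 6 metabolic genes, none was called higher in the hippocampus or the striatum than in the cortex (Cbs in the hippocampus had a log2 difference of 0.28 ± 0.13, adjusted p = 0.0872). Against the cortex, 4 were lower in the hippocampus, Aldoc (glycolysis), Acsl6 and Acsbg1 (activation of fatty acids) and Cyp4f15 (a fatty acid hydroxylase), with log2 differences of -0.13 to -0.53, of which the call of Aldoc was lost under quantile normalization (log2 -0.04 in place of -0.13), and 3 were lower in the striatum, Aldoc, Acsl6 and Acsbg1, with -0.23 to -0.26. Cbs, of the route from homocysteine to cysteine, was higher in the hippocampus than in the striatum (0.34 ± 0.13, adjusted p = 0.0288), a call lost when the medians of the samples were aligned and when hippocampus WT replicate 1 or 2 or striatum WT replicate 2 or 3 was left out. Ppp1r3c, which targets a phosphatase to glycogen, was called in no pair. Among the receptors, Tnfrsf19 was 2088 ± 93.7 in cortex, 1483 ± 83.9 in hippocampus and 1826 ± 150 in striatum, Fgfr3, a growth factor receptor, was lower in the striatum than in the cortex (log2 -0.42 ± 0.08, adjusted p = 2.73e-05), the neurotensin receptor gene Ntsr2 was highest in the hippocampus (2996 ± 227), the kinase gene Fjx1 was lower in the hippocampus than in the cortex (log2 -0.38 ± 0.11, adjusted p = 0.00277), and the BMP receptor gene Bmpr1b was called in no pair.

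The same pairs of regions were compared in the mutants, which are separate mice. Of the 18 genes called between hippocampus and cortex in WT mice, 18 had the same direction in each mutant, and 17 (94.4%) were called in Shank3-HT mice and 14 (77.8%) in Shank3-HM mice, where 80.2% and 77.0% of all genes called in WT mice were called again in the same direction. Of the 23 called between striatum and cortex, 18 (78.3%) were called in the same direction in Shank3-HT mice and 17 (73.9%) in Shank3-HM mice, against 87.2% and 85.2% of all genes. Of the 22 called between hippocampus and striatum, 15 (68.2%) and 19 (86.4%) were called again, against 81.2% and 83.5% of all genes. Gfap exceeded the cortex in the hippocampus by 2.47 and 2.39 (log2) in Shank3-HT and Shank3-HM mice, and Slc25a18 differed between striatum and cortex by -2.74 and -3.28. The Agt values, whose change with genotype was not tested between regions for Shank3-HT mice, were unlike in the 3 genotypes. Hippocampus against striatum gave a log2 difference of 2.98 for WT, 1.31 for Shank3-HT and 2.57 for Shank3-HM mice, and striatum against cortex gave -0.20, 1.39 and -0.02.

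The second comparison asked whether the Shank3 deletion changed the astrocyte genes within a region. The Shank3-HT and Shank3-HM comparisons of a region share the same WT samples. None of the 34 genes reached an adjusted p under 0.05 in any of the 6 comparisons, with lowest adjusted p values from 0.566 to 1. Over all genes tested the share called was 0.00% for Shank3-HT cortex, 0.0121% for Shank3-HM cortex, 0.00603% for each of Shank3-HT and Shank3-HM hippocampus, 0.00607% for Shank3-HT striatum and 0.182% for Shank3-HM striatum. At an unadjusted p under 0.05, no astrocyte gene passed in Shank3-HT cortex (2.68% of all genes), 7 passed in Shank3-HM cortex, all lower (2.85% of all genes were lower), 1 passed in Shank3-HT hippocampus (5.26%) and 1 in Shank3-HM hippocampus (4.73%), 13 passed in Shank3-HT striatum, all higher (4.17% of all genes were higher), and none in Shank3-HM striatum (7.43%). Groups of 5 mutant and 5 WT samples that did not overlap were found for 1 gene, Tnfrsf19 in Shank3-HM cortex, where 0.800% of all genes did not overlap. No astrocyte gene did so in Shank3-HT cortex (0.630% of all genes), Shank3-HT hippocampus (0.797%), Shank3-HM hippocampus (0.736%), Shank3-HT striatum (0.971%) or Shank3-HM striatum (1.86%).

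**Figure D3:**
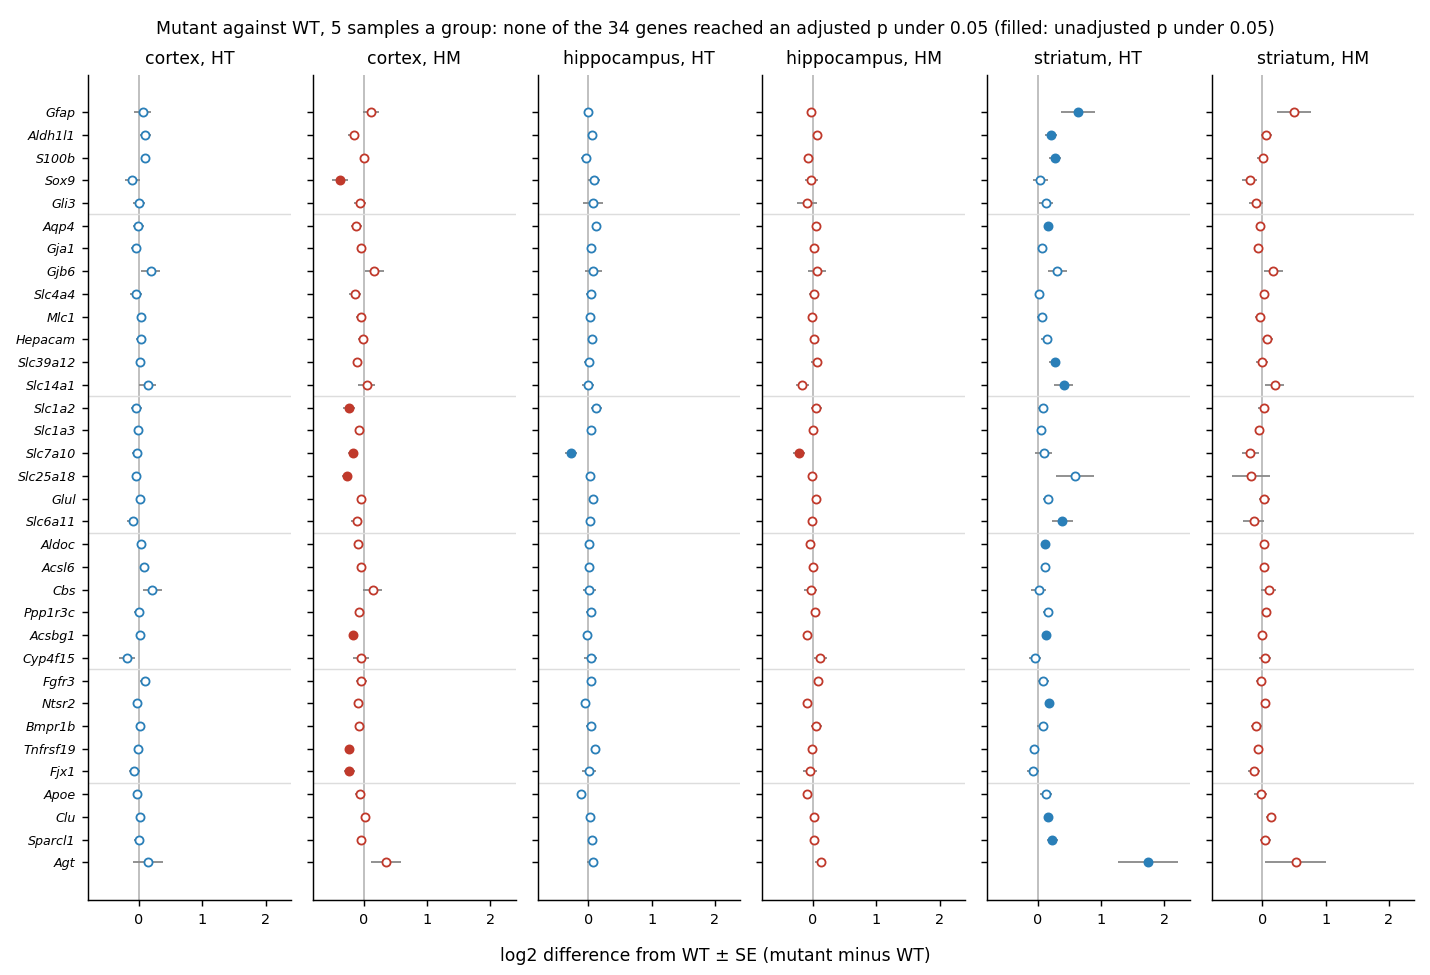
Log2 differences (± SE) of the 34 genes from WT, 1 panel per region and mutant genotype, with genes in rows in the same order as in the plot of regional differences; filled circles have an unadjusted p under 0.05. The 13 filled circles of Shank3-HT striatum lie right of zero, with Agt farthest at 1.74, and the 7 of Shank3-HM cortex lie left of zero.

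In Shank3-HT striatum, 31 of the 34 genes had a mean above WT on the log2 scale, with a median difference of 0.13 against -0.01 over all genes, and no gene was called. Agt was 95.6, 470.3, 259, 73.6 and 767 normalized counts in the Shank3-HT samples, against 71.4, 64.9, 52.5, 75.6 and 84 in WT and 78.9, 80.6, 185, 97.7 and 85.4 in Shank3-HM. Replicates 2, 3 and 5 of Shank3-HT were several times above every WT sample, replicate 1 a little above them and replicate 4 among them. The log2 difference was 1.74 ± 0.48 (adjusted p = 0.566), from 1.3 without replicate 5 (adjusted p = 0.858) to 2.15 without replicate 4 (adjusted p = 0.0985).

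Gfap had a like order of samples. It was 1324, 2010, 2960, 934 and 2105 in Shank3-HT striatum and 1264, 2603, 1928, 1097 and 1426 in Shank3-HM striatum, against 859 to 1423 in WT, with log2 differences of 0.63 ± 0.27 (adjusted p = 0.656) and 0.50 ± 0.27 (adjusted p = 0.724). In both mutant groups 4 of 5 samples were above the WT mean and the groups overlapped with WT. S100b was 3293, 3620, 3666, 2618 and 3243 in Shank3-HT striatum against 2757, 2572, 2877, 2687 and 2619 in WT, and Slc6a11 was 2493, 3690, 3313, 2170 and 5150 against 2232, 2489, 2400, 2448 and 2690. Replicate 4 was again the lowest Shank3-HT sample for both genes. Their log2 differences were 0.27 ± 0.09 (adjusted p = 0.632) and 0.39 ± 0.16 (adjusted p = 0.656).

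The count of genes above the whole WT range showed the same split of the samples. It was 22 of 34 in Shank3-HT striatum replicate 2, 21 in replicate 3, 24 in replicate 5, 12 in replicate 1 and 0 in replicate 4, that is 64.7%, 61.8%, 70.6%, 35.3% and 0.00% of the set, where 18.0%, 19.7%, 18.9%, 18.7% and 15.1% of all genes were above the WT range in the same samples. In Shank3-HM striatum it was 2, 10, 12, 3 and 5 genes in replicates 1 to 5 (5.88%, 29.4%, 35.3%, 8.82% and 14.7% of the set), where 14.1% to 21.9% of all genes were above the WT range. Leaving out 1 sample at a time, the number of genes with an unadjusted p under 0.05 and a higher level was 7 without WT replicate 1 (2.99% of all genes), 8 without Shank3-HT replicate 2 (2.86%), 8 without Shank3-HT replicate 5 (3.10%), 19 without Shank3-HT replicate 4 (5.87%) and 10 to 14 without any other WT or Shank3-HT sample (2.99% to 4.59%), and no gene was called in any of these fits.

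Some genes of other cells and places moved with these samples, and others did not. No marker of microglia (12 genes), endothelial cells (10), mural cells (6) or oligodendrocyte precursors (5) had an unadjusted p under 0.05 in Shank3-HT striatum. Of 12 neuron markers 1 was higher and of 6 ependymal markers 1 was lower at such a p, where 7.43% of all genes passed in either direction. The homeobox gene Gbx1, chosen after its values were seen, was 44.1, 88.9, 94.7, 55.5 and 90 normalized counts in Shank3-HT striatum against 36.7 to 57.6 in WT and 29.1 to 40.6 in Shank3-HM, so that replicates 2, 3 and 5 were again the highest. Of 12 oligodendrocyte markers, 10 were higher in Shank3-HT striatum at an unadjusted p under 0.05 (4.17% of all genes were) and none was called, with summed levels of 268531, 301260, 361881, 213674 and 279469 against 195631 to 260279 in WT. The summed choroid plexus markers were 481 to 1588 in 4 Shank3-HT samples and 69238 in replicate 5, against 469.9 to 1548 in WT, and the summed striatal markers were 253687, 224722, 195928, 240693 and 200064 against 187574 to 254959. The summed cortical markers were 6681, 4666, 11371, 6829 and 4609 in Shank3-HT striatum, highest in replicate 3, against 5172 to 13018 in WT. Their part in the values of the astrocyte genes was not tested.

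**Figure D4:**
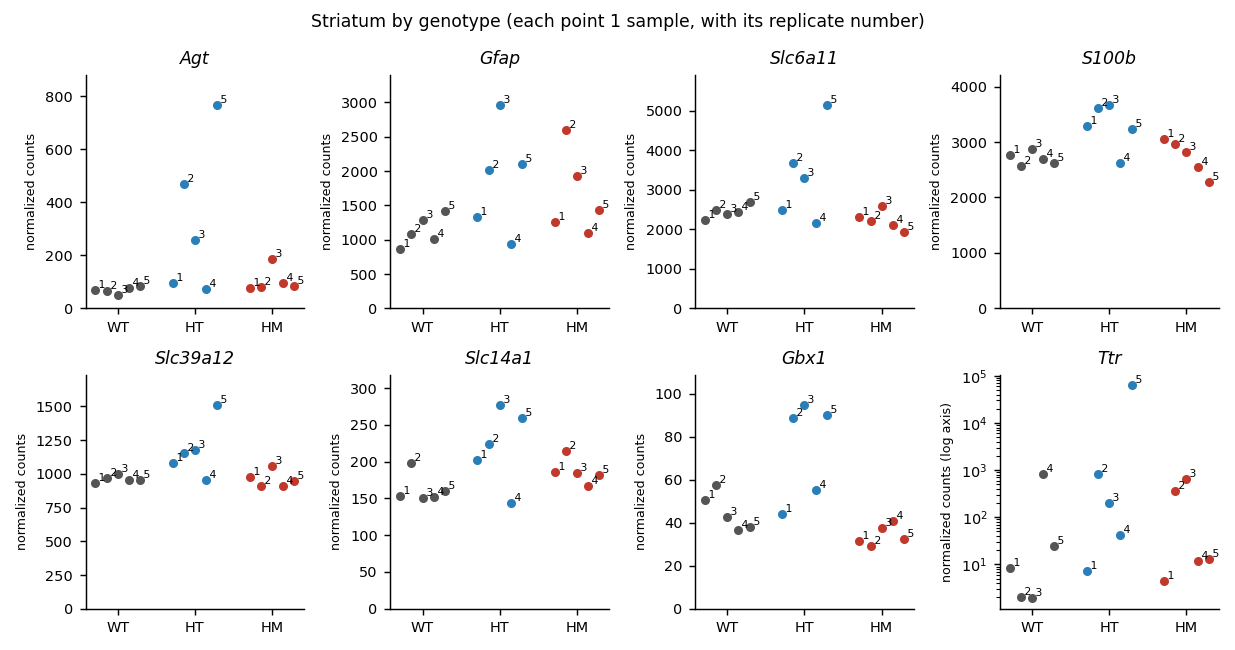
Normalized counts in the striatum of WT, Shank3-HT and Shank3-HM mice for 6 astrocyte genes, Gbx1 and Ttr (Ttr on a log axis), with each sample marked by its replicate number. Shank3-HT replicates 2, 3 and 5 are the highest Shank3-HT samples for Agt, Gfap, Slc6a11 and Gbx1, replicate 4 is the lowest for each astrocyte gene shown, and replicate 5 has the highest Ttr value (62259).

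In Shank3-HM cortex, 27 of the 34 genes had a mean below WT on the log2 scale, with a median difference of -0.07 against -0.00255 over all genes, and no gene was called. Tnfrsf19, which encodes a receptor of the tumour necrosis factor receptor family, was 1815, 1633, 1737, 1838 and 1897 normalized counts in Shank3-HM cortex, 2025, 2134, 2128, 1960 and 2193 in WT and 2185, 2120, 1952, 1902 and 2123 in Shank3-HT. All Shank3-HM samples were below all WT samples, and the log2 difference was -0.23 ± 0.06 (adjusted p = 0.878). The other 6 genes with an unadjusted p under 0.05 were Slc25a18, Sox9, Slc1a2, Slc7a10, Acsbg1 and Fjx1, with log2 differences of -0.17 to -0.37. Sox9 was 493.5, 635, 561, 755 and 405 in Shank3-HM cortex against 734, 752, 633, 767 and 736 in WT, so that replicates 2 and 4 lay within the WT range and replicates 1, 3 and 5 below it.

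The samples differed in how many genes were low. The number of genes below the whole WT range was 26 of 34 (76.5%) in Shank3-HM cortex replicate 1, 17 (50.0%) in replicate 5, 14 (41.2%) in replicate 3, 9 (26.5%) in replicate 2 and 7 (20.6%) in replicate 4, where 14.9%, 18.5%, 16.8%, 28.5% and 20.5% of all genes were below it. Without replicate 2, the library with the striatal marker, 11 genes in place of 7 had an unadjusted p under 0.05 and lower values (2.59% of all genes in place of 2.85%), and again none was called. The number was 5 without Shank3-HM replicate 1 (4.20% of all genes), without Shank3-HM replicate 5 (3.13%) or without WT replicate 4 (2.65%), and 6 to 9 without any other sample (2.41% to 3.65%). The median difference over the set was -0.0331 without Shank3-HM replicate 1 and -0.0912 without Shank3-HM replicate 4. Replicate 2 was the lowest of the Shank3-HM cortex samples for Slc25a18 (1041 against 1139 to 1403 in the other 4) and Aldh1l1 (1390 against 1908 to 2128) and the highest for Agt (231 against 73.9 to 99.9). Endothelial markers were lower at an unadjusted p under 0.05 for 4 of 10 genes in Shank3-HM cortex, with sums of 8948 to 10354 against 9960 to 11896 in WT, and microglia markers for 3 of 12, with sums of 11027 to 11929 against 11235 to 13872; none of these was called, and their part in the values of the astrocyte genes was not tested.

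In each of the other 4 comparisons with WT, 0 or 1 gene of the set had an unadjusted p under 0.05, where 2.68% to 7.43% of all genes did. In Shank3-HT hippocampus 27 of the 34 genes had a mean above WT on the log2 scale, with a median difference of 0.036 against 0.00561 over all genes. The number above WT was 18 in each of Shank3-HT cortex, Shank3-HM hippocampus and Shank3-HM striatum. In the hippocampus, Slc7a10 had the smallest p of the set in both mutants. It was 807, 728, 629.9, 755 and 723 normalized counts in WT, 530.1, 661, 570.2, 602.5 and 643 in Shank3-HT and 678, 624, 719, 584.5 and 528 in Shank3-HM. All 10 mutant samples were below the WT mean of 728, but both groups overlapped with WT through WT replicate 3, and the log2 differences were -0.28 ± 0.09 (adjusted p = 0.926) and -0.22 ± 0.09 (adjusted p = 0.92), against the same 5 WT samples. In Shank3-HT cortex the smallest p belonged to S100b, at 2878, 2528, 2796, 2629 and 2511 against 2481, 2439, 2614, 2583 and 2392 in WT (log2 0.09 ± 0.05, adjusted p = 1), and in Shank3-HM striatum to Clu, at 17219, 21097, 20321, 18443 and 18992 against 15533, 18256, 17784, 17789 and 18127 (log2 0.13 ± 0.07, adjusted p = 0.713), with overlapping groups in both cases.

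The classical markers gave these values in the mutants. Gfap was 2073, 1331, 1313, 1542 and 2267 in Shank3-HT cortex, 1556, 1954, 1600, 1613 and 1957 in Shank3-HM cortex, 8466 to 9674 in Shank3-HT hippocampus and 8277 to 10055 in Shank3-HM hippocampus, with log2 differences of 0.06, 0.11, -0.01 and -0.03 from WT. Aqp4 was 3373, 2421, 2651, 2774 and 2813 in Shank3-HT cortex and 2700, 2819, 2091, 2889 and 2553 in Shank3-HM cortex, 4851, 4002, 4342, 3753 and 3824 in Shank3-HT hippocampus and 4406, 3823, 3877, 3679 and 3901 in Shank3-HM hippocampus, and all 4 mutant groups overlapped with WT. In the striatum it was 2984, 2645, 2719, 2234 and 2814 in Shank3-HT and 2318, 2278, 2371, 2182 and 2449 in Shank3-HM. Slc1a2 was 91753, 97606, 92916, 116420 and 87315 in Shank3-HM cortex, below the lowest WT value in 4 of 5 samples (log2 -0.23 ± 0.09, adjusted p = 0.878), and overlapped with WT in the other 5 mutant groups, where it ranged from 99771 to 119762 in Shank3-HT cortex, 75037 to 100543 in Shank3-HT hippocampus, 75951 to 80316 in Shank3-HM hippocampus, 90276 to 99062 in Shank3-HT striatum and 76616 to 97150 in Shank3-HM striatum. Aldh1l1 ranged from 1941 to 2425 in Shank3-HT cortex, 1085 to 1168 in Shank3-HT hippocampus, 1064 to 1187 in Shank3-HM hippocampus, 1150 to 1595 in Shank3-HT striatum and 1103 to 1328 in Shank3-HM striatum.

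Whether the effect of the homozygous deletion differed between regions was tested in the fit of all 9 groups. No astrocyte gene was called for striatum against cortex (0.0539% of all genes), striatum against hippocampus (0.0718%) or hippocampus against cortex (0.00%). At an unadjusted p under 0.05 the effect was higher in the striatum than in the cortex for 1 gene, Acsbg1 (2.61% of all genes), higher in the striatum than in the hippocampus for none (2.50%), and higher in the hippocampus than in the cortex for 3 genes, Sox9, Slc1a2 and Tnfrsf19 (2.32%). No astrocyte gene passed in the other direction.

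The mean level of the set was described by a score, the mean log2 value over the 34 genes minus the mean over the 16708 genes tested in all regions. It was 2.96 ± 0.05 (SD, n = 5) in WT cortex, 3.01 ± 0.03 in WT hippocampus and 2.67 ± 0.04 in WT striatum, and no WT striatum sample (2.60 to 2.71) reached the lowest WT cortex sample (2.89). With the median over the genes in place of the mean, striatum and cortex differed by -0.01 in place of -0.29, hippocampus and cortex by 0.167 in place of 0.05, and hippocampus and striatum by 0.182 in place of 0.344. That median is taken over the levels within a sample and follows the genes of middle rank. It is not the median of the differences of the genes, which was -0.225 for striatum against cortex. In Shank3-HT striatum the samples were at 2.81, 3.004, 2.93, 2.60 and 3.03, 4 of them above every WT striatum sample and 1 within the WT range. Shank3-HM striatum samples were at 2.615, 2.76, 2.80, 2.68 and 2.60, and Shank3-HM cortex samples at 2.77, 2.92, 2.91, 2.99 and 2.83, against 2.89 to 3.02 in WT cortex.

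**Figure D5:**
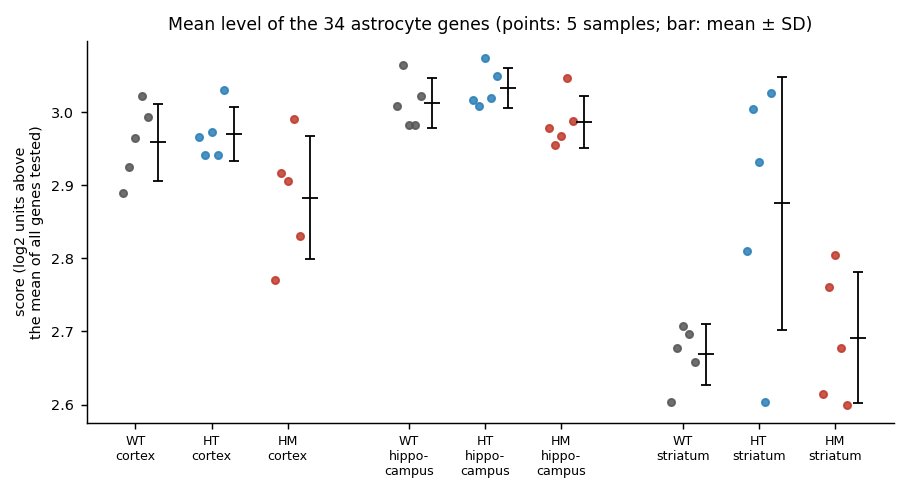
Score of the astrocyte genes (mean log2 level of the 34 genes relative to that of the 16708 genes tested) in each of the 45 samples by region and genotype, with the mean and SD beside the 5 points of a group; the axis does not start at 0. WT striatum lies at 2.60 to 2.71, below WT cortex and WT hippocampus, and Shank3-HT striatum spreads from 2.60 to 3.03.

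Other astrocyte genes were taken from lists of further functions. The counts of called genes below stand beside 23.3% of all genes higher and 23.3% lower in WT hippocampus than in WT cortex, and 30.0% higher and 29.3% lower in WT striatum than in WT cortex. In the list of ion and calcium handling, 14 genes, none was called in any mutant comparison. At an unadjusted p under 0.05, 6 (42.9%) were higher in Shank3-HT striatum, where 4.17% of all genes were, and 2 (14.3%) lower in Shank3-HM cortex, where 2.85% were. None passed in the other mutant comparisons. Between WT striatum and cortex 4 (28.6%) were higher and 7 (50.0%) lower. The purinergic receptor gene P2ry1 (363 against 55.9 normalized counts, log2 2.68 ± 0.24, adjusted p = 6.66e-13) and Grm5, a metabotropic glutamate receptor that neurons express as well (11263 against 4564, log2 1.3 ± 0.1), were higher, and the potassium channel gene Kcnj16 (214 against 915, log2 -2.11 ± 0.13, adjusted p = 1.07e-17) and the adrenergic receptor gene Adra1a (155 against 379, log2 -1.29 ± 0.13) lower. Between WT hippocampus and cortex 1 (7.14%) was higher, Grm5 (log2 0.57 ± 0.1), and 7 (50.0%) were lower, with Adra1a (log2 -1.46 ± 0.13) and Grm3 (log2 -0.97 ± 0.08) at the end.

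Hedgehog signalling, in which Gli3 acts, was followed over 10 further genes, of which none was called in a mutant comparison. In the WT striatum 5 were higher and 3 lower than in the cortex. The ligand-binding inhibitor gene Hhip was 732 against 154.5 normalized counts (log2 2.28 ± 0.17, adjusted p = 4.57e-15), while the coreceptor gene Boc was 95.4 against 797 (log2 -3.07 ± 0.12, adjusted p = 2.16e-23) and Gli1, a target and effector of the pathway, 20.6 against 81 (log2 -1.98 ± 0.22). In the WT hippocampus 4 were higher, led by Smo, the signal transducer (588 against 293, log2 1 ± 0.1), and Hhip (log2 0.95 ± 0.17), and 2 lower, Boc (389 against 797, log2 -1.03 ± 0.12) and Ptch1 (log2 -0.21 ± 0.08).

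Of 33 genes linked to reactive astrocytes, 28 were in the table and 25 to 27 were tested per comparison. None was called in any of the 6 mutant comparisons, with 2 to 4 genes per comparison (7.41% to 14.8% of those tested) at an unadjusted p under 0.05, where 2.68% to 7.43% of all genes passed. In WT hippocampus 12 (44.4%) were higher and 1 (3.70%) lower than in the cortex. Cd109 (229.7 against 12.2 normalized counts, log2 4.15 ± 0.34) and the complement gene C3 (44.8 against 2.26, log2 3.84 ± 0.55) were at the top, and S100a10 was lower (259.6 against 420.1, log2 -0.69 ± 0.13). In WT striatum 7 (25.9%) were higher and 7 (25.9%) lower, with C3 (log2 3.37 ± 0.55) and B3gnt5 (log2 1.76 ± 0.26) highest and Sphk1 (8.93 against 97.3, log2 -3.61 ± 0.49) and Ptgs2 (70.6 against 406, log2 -2.53 ± 0.14), a gene that cortical neurons express, lowest.

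The list of secreted and phagocytic genes that act on synapses held 19 genes. In WT hippocampus 9 (47.4%) were higher and 5 (26.3%) lower than in the cortex, with the thrombospondin gene Thbs4 (411 against 38.9 normalized counts, log2 3.43 ± 0.32) and Tgfb2 (1637 against 312, log2 2.39 ± 0.1) at one end and Chrdl1, an astrocyte-secreted regulator of glutamate receptors (82.4 against 740.2, log2 -3.17 ± 0.17), and Gpc6 (log2 -0.97 ± 0.15) at the other. In WT striatum 4 (21.1%) were higher and 6 (31.6%) lower, with Thbs4 (log2 3.09 ± 0.32) and Thbs3 (log2 0.92 ± 0.13) highest and Thbs2 (log2 -1.84 ± 0.24) and Gpc4 (log2 -1.29 ± 0.12) lowest. Of 20 metabolic genes, 10 were higher and 2 lower in the hippocampus than in the cortex, among them Mt1, a metallothionein (log2 0.65 ± 0.09), Phgdh, of serine synthesis (log2 0.64 ± 0.09), Dio2, which activates thyroid hormone (1816 against 3490, log2 -0.94 ± 0.08), and Ldhb (log2 -0.55 ± 0.05), and 8 were higher and 5 lower in the striatum, among them Phgdh (log2 0.75 ± 0.09), Acaa2 (log2 0.44 ± 0.11), Gpd2 (log2 -0.88 ± 0.06) and Gys1 (log2 -0.60 ± 0.09). No gene of these lists was called in a mutant comparison.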

How the data were processed

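RNA-seq samples of the cortex, hippocampus and striatum of WT, Shank3-HT and Shank3-HM mice (5 per group) were grouped by their labels. The labels call one genotype knock-out and the columns KI, and these were taken as Shank3-HM. The deposited signal values are normalized counts made by the authors by quantification with Salmon (1.1.0 per the labels), import with tximport and normalization with DESeq2 (1.26.0 per the labels, on GRCm38). Whole reads could not be recovered from them and their sums of 26118607 to 29568983 per sample are not depth, which is unknown, so count tests, intervals and floors were not used, and a fold of a low gene is understated.

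Values were analysed as log2(value + 1) in limma 3.58.1 (R 4.3.3, lmFit and eBayes with an intensity trend) for genes with a mean of at least 10, with Benjamini-Hochberg adjustment over all genes tested and a threshold of 0.05, after a test on simulated data. The 15 samples of a region were fitted together for genotype contrasts, and all 9 groups together for region contrasts and differences of effects. Samples are labelled as replicates and the study describes 5 mice per group, and p-values measure the spread between these samples. The astrocyte genes and the other lists were chosen with earlier results of these data known. All 34 genes were named, with values per sample for Gfap, Aqp4, Slc1a2 and Aldh1l1, for the 2 largest called differences per direction and region pair, and for the smallest p per genotype contrast; other lists were named by their 2 largest called differences per direction. An item that this rule selects is not reported here. Slc14a1, Slc6a11, S100b in the striatum and Sox9 were given per sample after their values were seen, as were Gbx1, Ttr, Drd1, Slc17a7 and the counts at an unadjusted p. Reads of near-identical copies or overlapping genes could not be separated here. Alternatives were other pseudocounts, filters, scalings, models and each sample left out.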

Additional observations from a re-analysis of the deposited data

Results flagged for a closer look

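Of 45 groups of 5 samples tested, 2 had 1 sample whose gap to its nearest neighbour, as a share of the range, exceeded Dixon's 95% limit of 0.71 for 5 samples, which chance alone gives in about 1 group of 20. Those 45 groups were only a part of all groups of gene, region and genotype, so the count does not cover the others. Some groups outside the count also had 1 sample past the limit, such as Agt in Shank3-HM cortex and Shank3-HM striatum and Slc14a1 in WT cortex and WT striatum. In WT striatum, replicate 1 held 15533 normalized counts of Clu, below the other 4 samples at 17784 to 18256. In WT hippocampus, replicate 2 held 456 normalized counts of Gli3, above the other 4 samples at 196 to 263.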

How the results depend on the processing

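None of the 34 genes was called in any genotype contrast or in any difference of the homozygous effect between regions under any alternative run. The counts called between WT regions kept within 1.5 times under each pseudocount, filter, scaling and model and with any 1 sample left out, when they were 7 to 8 higher and 11 to 13 lower (hippocampus against cortex), 3 to 4 higher and 17 to 19 lower (striatum against cortex), and 16 to 18 higher and 4 to 6 lower (hippocampus against striatum). In Shank3-HM mice, 11 genes were called higher and 7 lower in the hippocampus than in the cortex, and in Shank3-HT mice 8 were called higher in the striatum than in the cortex. The shares of all genes called in these mutant contrasts are not given here, so these counts are not set against all genes. Gfap lost its call between striatum and cortex in Shank3-HT mice, where the log2 difference was of the opposite sign and within its error of 0 (0.0581 ± 0.19, adjusted p = 0.814). It lost this call in Shank3-HM mice too (log2 -0.126, adjusted p = 0.603). Aqp4 lost its call for this pair in Shank3-HT (log2 -0.065, adjusted p = 0.496) and Shank3-HM mice (log2 -0.162, adjusted p = 0.0752), and Slc1a2 in Shank3-HM mice (log2 -0.0879, adjusted p = 0.414). Slc1a2 also lost its call between hippocampus and striatum in Shank3-HT mice (adjusted p = 0.0587), and Slc25a18 that between hippocampus and cortex in Shank3-HM mice (adjusted p = 0.179). The causes were not tested.

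Of the 63 calls between WT regions, 55 held under all alternatives in WT mice and none changed sign. The other 8 were Aldoc (hippocampus against cortex, lost under quantile normalization), Apoe, Slc1a2, Gfap, Hepacam and Slc14a1 (striatum against cortex), and Slc1a2 and Cbs (hippocampus against striatum). Slc14a1 was lost when any single sample among cortex WT replicates 3, 4 and 5 and striatum WT replicates 1, 3 and 4 was left out, Hepacam without striatum WT replicate 3 or 4, and Apoe under quantile normalization or without striatum WT replicate 2.

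The labels do not say whether a replicate number marks the same mouse in the 3 regions. Correlations of same-numbered samples' deviations from their group means were -0.12 to 0.15 between genotypes, with 9 of 30 samples best with their own number, and -0.10 to 0.23 between regions, with 27 of 45. Each sample had 5 candidates in the other group. The regional values are a hint from the data that some same-numbered samples may share a mouse. Not every pair correlated and the labels do not tie numbers to mice, so the fits without the block were kept. Their p-values between regions do not account for mice that regions may share. In the genotype contrasts the block was the replicate number within a region, which joins different mice, and no astrocyte gene was called. In the region contrasts the block was the genotype with the replicate number. Then 7 genes were higher and 12 lower (hippocampus against cortex), 4 and 19 (striatum against cortex) and 18 and 6 (hippocampus against striatum). Slc6a11, Glul and Fjx1 were gained and no regional call was lost. Since depth is unknown, small differences of the low genes Agt, Slc14a1 and Gli3 are limited by counting error of unknown size.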
